A study of Homo sapiens with 24 samples.

Results

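The double knockdown (KD) of p52 and RelB in L1236 cells was set against its own control siRNA, on the 12 of 24 arrays of the series whose titles assign them to the second experiment. Of these, 6 arrays held cells treated with siRNAs against NFKB2 and RELB and 6 held cells treated with non-targeting siRNA. L1236 is an established Hodgkin lymphoma (HL) cell line of B cell origin, and every value below comes from this 1 line. Each arm was made of 3 biological replicates with 2 siRNA sequences in each, and whether arrays of 1 replicate came from separate cultures is not stated, so p-values measure the spread between these arrays. Per the labels, the RELB siRNA was used at 1000 nM for 3 days and the NFKB2 siRNA at 500 nM for 2 days, by passive uptake in medium low in serum, and the cells were harvested 1 day after normal serum had been restored. The methods place this harvest before apoptosis set in. The control arm received 1 of 2 non-targeting siRNAs per array in each replicate, at a dose the labels do not state. The other 12 arrays hold a p50/RelA KD with controls of its own and are used only where its effect is compared. In that KD the NFKB1 siRNA was used at 1000 nM for 3 days and the RELA siRNA at 500 nM for 2 days. Its harvest was also 1 day after the siRNA treatment, and its arrays were scanned in other batches.

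NF-κB dimers of the non-canonical pathway arise through the kinases NIK and IKKα. Once these are active, p100, the product of NFKB2, is phosphorylated and processed to p52, which pairs with RelB. The canonical pathway works through p50 and RelA, which are held in the cytoplasm by IκB proteins. In Hodgkin cells both pathways are active without an outside stimulus, and NF-κB target genes include chemokines, receptors, inhibitors of apoptosis and the inhibitors of the pathway itself.

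The siRNA sequences define the perturbation and are shown for that reason. Each is 19 bases long and is given 5′ to 3′ as listed in the methods, which state neither the strand nor which of each pair was labelled sequence 1.
NFKB2 siRNA, first in the list: ucauugagcagauagucua
NFKB2 siRNA, second in the list: cugucaagaucuguaacua
RELB siRNA, first in the list: guaggauucggaaaagauu
RELB siRNA, second in the list: uggagaucaucgacgagua
G or C made up 7 of the 19 bases in all of them except the second RELB siRNA, where it was 9.

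The values are log2 RMA values of transcript clusters, that is, of the probe groups that stand for 1 transcript locus each, and every difference is KD minus control. Clusters with exactly 1 gene symbol that reached 6 in over 50% of the 12 arrays were tested, 16101 in all, for 15235 genes. A cluster was called when its limma adjusted p was below 0.05 and the difference was at least 10%. In this bulk measurement, fewer cells of a type and less RNA per cell cannot be told apart. Markers of the line lay well above the limit of 6 in the control arm, with TNFRSF8 (CD30) at 9.18, IRF4 at 12.5 and CD40 at 10.9. Of the B cell markers, PAX5 was at 10.9, whereas MS4A1 (CD20) was below the limit at 4.84. One KD array stood apart from the rest. It was sequence 2 of replicate 3, whose mean correlation with the other arrays of its arm was 0.986. The other KD arrays had 0.993 to 0.994, means that include their correlation with this array, and the control arrays 0.996 to 0.997. Markers of other cell types read higher on it: the mean of 17 T and NK cell markers was 6.97 there, the highest of the KD arm, and 6.63 to 6.69 on control arrays. The means of 12 myeloid markers (6.71 against 6.37 to 6.49 in control) and of 18 fibroblast, endothelial and epithelial markers (7.30 against 7.04 to 7.08) were the highest of the arm on the same array. Of these markers 3, 5 and 4 had control means under 6. The outlying array also had a higher median over all clusters (7.51, against 7.39 to 7.42 on the others). Its interquartile range was narrower (3.16 against 3.33 to 3.42). Why the marker means were higher on it was not tested. The part of this array in each result was examined by leaving it out. The arrays were scanned in 2 batches, 1 with replicate 3 and 1 with replicates 1 and 2, and each batch held both arms.

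The knockdown reached NFKB2 far more than RELB at the mRNA level. NFKB2, the gene of p100 and p52, read 10.16, 10.32 and 10.41 (lowest, median and highest) on the 6 control arrays and 8.72, 8.99 and 9.07 on the 6 KD arrays. Arms did not overlap, as was the case in 510 clusters lower in KD (3.17%) and 338 higher (2.1%) of those tested, and the nearest arrays of NFKB2 were more than 1 unit apart. The difference was -1.34 ± 0.04 (log2, standard error, 6 arrays per arm; limma adjusted p = 4.75e-09), at -1.35 for sequence 1 and -1.34 for sequence 2. RELB read 8.95, 9.07 and 9.15 in control and 8.59, 8.80 and 8.90 in KD, so that the arms did not overlap but nearly touched. Its difference was -0.29 ± 0.05 (limma adjusted p = 0.00221, 82.0% of control), and the call was lost without replicate 2 (-0.27, adjusted p = 0.0772). The mRNA values say nothing of the protein, which these arrays do not measure. The study examined depletion of the subunit proteins in L1236 cells by western blot, which is not part of these data.

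REL, the gene of c-Rel, was not targeted and fell as well. It lay at 11.12, 11.23 and 11.34 in control and at 10.34, 10.68 and 10.87 in KD, without overlap. The difference was -0.44 with sequence 1, -0.70 with sequence 2 and -0.50 without the outlying array, on which REL was lowest. NFKB1, the gene of p105 and p50, lay at 11.17, 11.30 and 11.34 in control and at 11.21, 11.46 and 11.53 in KD, with overlapping arms. Its rise of 0.15 ± 0.04 (adjusted p = 0.0374) was lost when any 1 of 10 of the 12 arrays was left out (highest adjusted p 0.0958). RELA had a difference of 0.06 ± 0.05 and did not pass (adjusted p = 0.477). MAP3K14, which encodes NIK, went the other way from the targets: the control arrays lay at 8.82, 8.89 and 9.07 and the KD arrays at 9.28, 9.35 and 9.41. No KD array of MAP3K14 was below any control array, and the rise was 0.44 ± 0.05 (adjusted p = 0.000172).

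**Figure D1:**
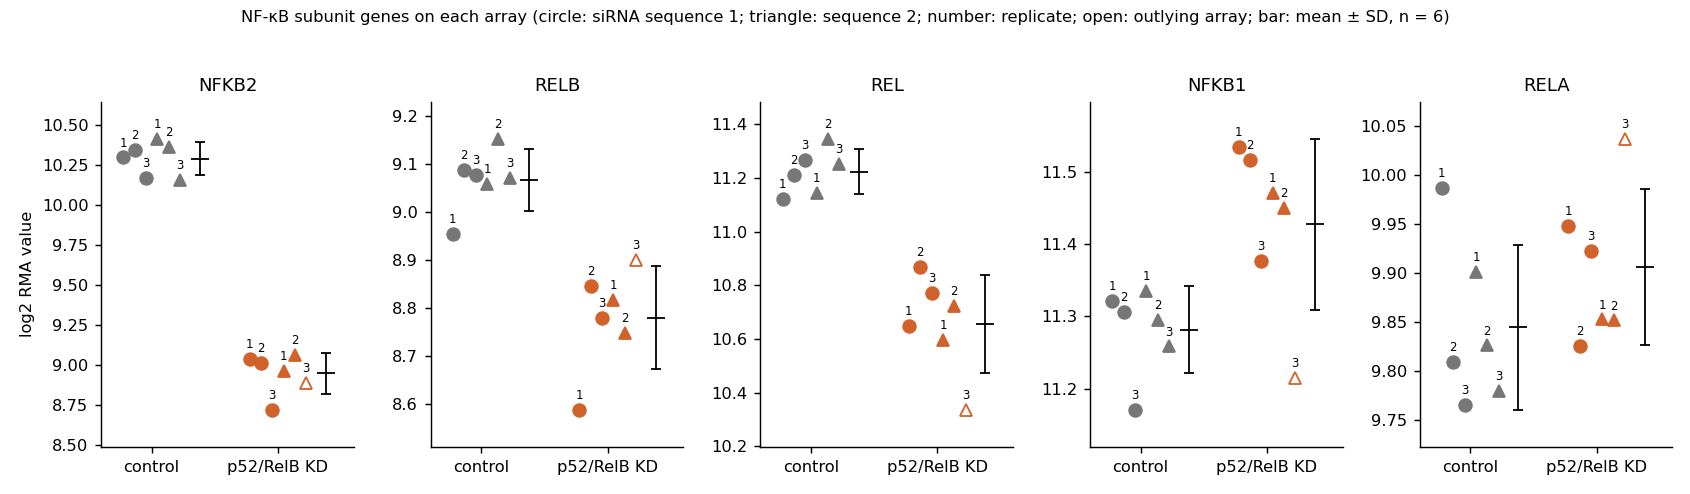
Log2 RMA values (y axis) of NFKB2, RELB, REL, NFKB1 and RELA, 1 panel each, on each of the 12 arrays. Circles are sequence 1, triangles sequence 2, numbers the replicate, the open triangle the outlying array, and each bar spans the arm's mean ± SD. NFKB2 fell from a mean of 10.29 to 8.95, RELB from 9.07 to 8.78 and REL from 11.22 to 10.66, while RELA stayed within 9.77 to 10.04 on all arrays.

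Across the transcriptome, p52/RelB KD lowered more genes than it raised, and nearly all changes were small. The number of called clusters in p52/RelB KD was 1559 of 16101 (9.68%). Of these 926 were lower (5.75%) and 633 higher (3.93%), from 887 and 614 genes with 1 gene in both sets. With clusters of several gene symbols included, an alternative chosen after seeing the data, 1764 were called. Among calls the median absolute difference was 0.23 and the median SE of a tested difference 0.0536. A change of over 1.5-fold was reached by 62 falls and 16 rises, and of over 2-fold by 7 and 3. The median difference of all tested clusters was 0.02. Without the outlying array 2309 of 16115 clusters were called (14.3%), 1153 lower (7.15%) and 1156 higher (7.17%), so the excess of falls was not seen without it. Of the calls made with all arrays, 891 falls and 605 rises were also made without that array. All 62 falls and 16 rises over 1.5-fold were among these. Leaving out replicate 1 gave 443 calls, leaving out replicate 2 gave 470 and leaving out replicate 3, which holds the outlying array, gave 2047. Over all 6 arrays of each arm, the spread was wider in the KD arm than in the control arm, with a median SD of 0.129 against 0.0775. The KD value includes the outlying array, and the SD without it was not computed.

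The siRNA sequences were compared as a check on effects that belong to 1 sequence. Of the 1559 called clusters 1558 had the same sign of difference with both sequences and in all 3 replicates. The calls were made from these same arrays, so this agreement follows largely from the selection and is not separate support. The difference between the KD effects of sequence 2 and sequence 1 passed in 0 of 16101 clusters (limma, smallest adjusted p = 0.857), with 648 at an unadjusted p below 0.05. With 3 arrays per sequence and arm, this does not show that the sequences acted alike. The control siRNAs differ between the sequences too, and they are part of the same comparison.

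The genes were read through 39 lists, from NF-κB targets to markers of other cells. When 1 cluster per gene is counted, 5.69% of the tested genes were called lower and 3.96% higher (7.1% and 7.25% without the outlying array), and the counts below are to be read against these shares. The largest shares of falls among lists of over 10 members were in glycolysis and other hypoxia-induced genes. The largest share of rises was in the replication-dependent histones.

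**Figure D2:**
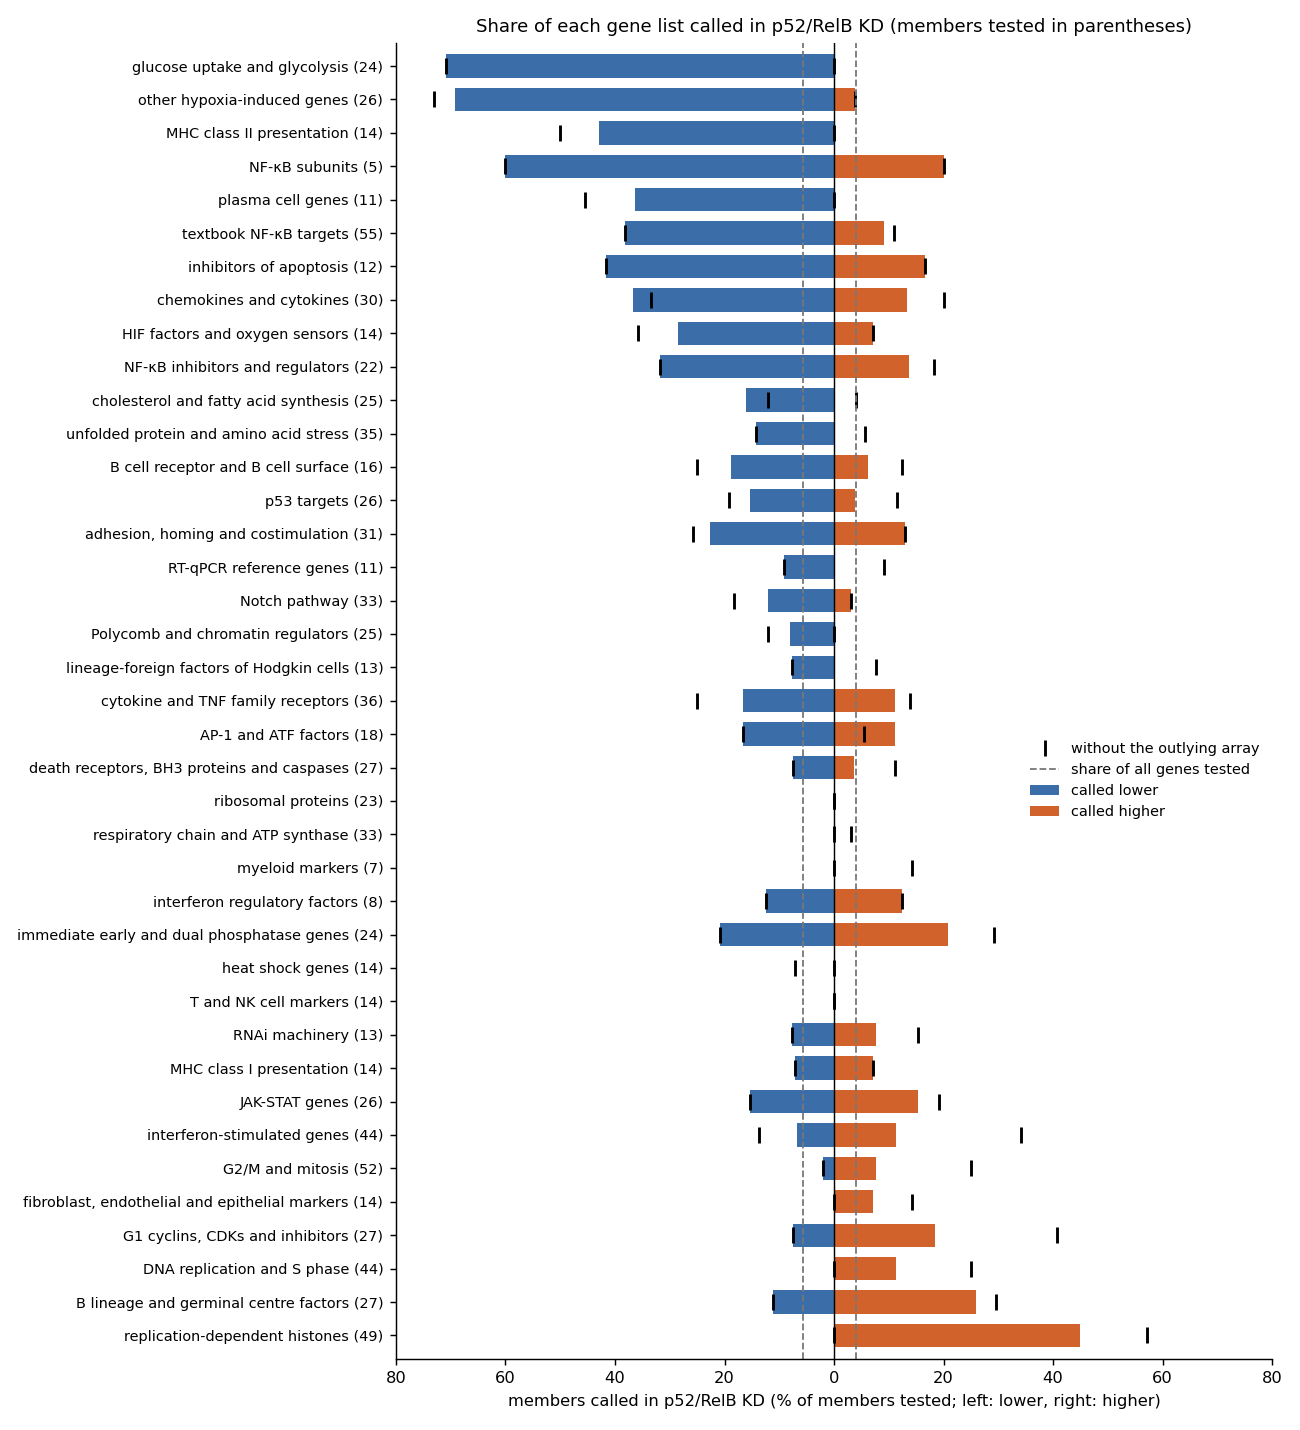
Share of the tested members of each of 39 gene lists that was called lower (left) or higher (right) in p52/RelB KD, in percent, with dashed lines at the shares over all tested genes (5.69% and 3.96%) and black ticks for the shares without the outlying array. Glycolysis (17 of 24 lower) and other hypoxia-induced genes (18 of 26 lower) reach furthest to the left and histones (22 of 49 higher) furthest to the right.

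NF-κB target genes fell in part and rose in part. Of 55 textbook targets tested, 21 were lower, 5 higher and 29 did not pass, with a median difference of -0.10. Falls included CCL22, CXCR5, CFLAR, STAT5A, LTA, IER3, BCL2L1, VCAM1, TNFAIP3, CXCL10, TNF and CD40, and the rises were CCL3, CCL5, CSF1, BCL2A1 and CD44. Neither count moved much without the outlying array (21 lower, 6 higher), whereas 11 and 8 falls were called without replicates 1 and 2. NF-κB targets that did not pass included ICAM1 (-0.04), IL6 (-0.02), NFKBIA (0.04) and IRF1 (-0.03).

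CCL22, a chemokine that draws regulatory and Th2 cells, had the largest fall of these. Its control arrays lay at 10.38, 10.60 and 10.94 and its KD arrays at 9.54, 9.75 and 10.07. The arms did not overlap, and the KD mean was 55.1% of control. LTA, the gene of lymphotoxin-α, lay at 13.32, 13.39 and 13.42 in control and at 12.80, 12.93 and 13.09 in KD. Here too every KD array was below every control array (-0.44 ± 0.05, adjusted p = 9.01e-05), and the 3 clusters of LTA were all called lower. Whether clusters of 1 gene share probes was not tested, so they are not taken as separate measurements. CCL5, a chemokine for T cells, moved upward, from 11.39, 11.49 and 11.51 to 11.72, 11.83 and 12.01. The arms were again separate, and the rise was 0.37 ± 0.04 (adjusted p = 0.000189). Among 30 chemokines and cytokines, 11 fell and 4 rose (CCL3 by 0.58, CCL5, IL7 by 0.37 and CSF1 by 0.35), with a median of 0.00. Besides CCL22 and LTA the falls were of VEGFA, CXCL16, CXCL10, TNF, CXCL13, IL12A, EBI3, TNFSF9 and TGFB1, from -0.39 to -0.15. Without the outlying array 10 of this list fell and 6 rose, and 4 to 11 fell when 1 replicate was left out. CCL17, which shares its receptor CCR4 with CCL22, had a difference of 0.12 and did not pass.

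Sequence matches for NF-κB were looked up in the 250 bases before the start of each gene (RefSeq, GRCh38.p14). The κB consensus, 10 letters read on both strands, was present in 9.57% of all 27305 promoters, in 11.8% of the promoters of tested genes, in 12.3% of those called lower and in 12.9% of those called higher. Among the textbook targets it was present in 14 of 43 matched promoters (32.6%) and in 8 of 19 of those called lower. A match is a description of the letters and not of binding. The promoters of CCL22, REL, CFLAR and VCAM1, all of them lower in KD, are shown with the matches in capitals. They were picked for holding a match. Genes without a listed promoter or without a match were passed over, among them NFKB2, BIRC2 and CXCR5, which fell more than VCAM1.
CCL22, chr16:57358533-57358782, plus strand: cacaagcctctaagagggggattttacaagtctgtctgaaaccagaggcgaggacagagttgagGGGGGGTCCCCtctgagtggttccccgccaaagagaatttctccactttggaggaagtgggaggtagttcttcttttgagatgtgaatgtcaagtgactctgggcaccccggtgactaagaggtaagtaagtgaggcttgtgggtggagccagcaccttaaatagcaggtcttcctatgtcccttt
REL, chr2:60881324-60881573, plus strand: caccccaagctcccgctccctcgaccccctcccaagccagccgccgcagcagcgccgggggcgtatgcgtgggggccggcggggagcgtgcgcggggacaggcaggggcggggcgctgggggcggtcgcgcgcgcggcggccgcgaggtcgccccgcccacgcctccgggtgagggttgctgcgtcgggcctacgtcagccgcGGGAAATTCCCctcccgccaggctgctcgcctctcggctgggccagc
CFLAR, chr2:201118466-201118715, plus strand: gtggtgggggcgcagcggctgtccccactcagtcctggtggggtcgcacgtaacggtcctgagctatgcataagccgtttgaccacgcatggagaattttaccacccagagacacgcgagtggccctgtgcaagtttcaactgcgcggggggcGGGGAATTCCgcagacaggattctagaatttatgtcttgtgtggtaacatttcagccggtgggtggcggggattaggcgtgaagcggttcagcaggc
VCAM1, chr1:100719492-100719741, plus strand: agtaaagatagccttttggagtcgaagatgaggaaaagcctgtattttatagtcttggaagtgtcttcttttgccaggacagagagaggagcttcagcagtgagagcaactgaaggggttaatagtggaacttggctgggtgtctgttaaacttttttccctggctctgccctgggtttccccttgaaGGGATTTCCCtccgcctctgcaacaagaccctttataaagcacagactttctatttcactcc
The match nearest to the start lay 176 bases before it in CCL22, 37 in REL, 88 in CFLAR and 53 in VCAM1.

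Of 22 inhibitors and regulators of NF-κB, 7 fell and 3 rose, and the median difference was 0.02. The falls included negative regulators, namely TNFAIP3 (A20, -0.35) and its partners TNIP1 (-0.31) and TAX1BP1 (-0.27), as well as the IκB family member BCL3 (-0.27). The remaining 12 members did not pass, and these too include negative regulators, such as the inhibitor NFKBIA. BIRC2, the gene of cIAP1, which keeps NIK low by ubiquitination, had the largest fall. It lay at 10.28, 10.31 and 10.34 in control and at 9.25, 9.78 and 9.83 in KD, and its lowest value was on the outlying array. The fall was 0.62 ± 0.08 in size with that array and -0.52 (adjusted p = 3.79e-07) without it. MAP3K14, CHUK (IKKα, 0.19) and OTULIN (0.24) rose. The calls of TAX1BP1, CHUK, OTULIN and TRAF1 (-0.23) were lost when any 1 of 4, 9, 9 and 9 arrays was left out. The number of rises was therefore 1 to 4 over the runs without 1 array.

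Receptors of the cytokine and TNF families moved in both directions. Of 36 tested, 6 fell and 4 rose, and 9 fell and 5 rose without the outlying array. TNFRSF17, the receptor BCMA of plasma cells, fell by 0.53, CSF2RB, the shared β chain of the GM-CSF family, by 0.45, IFNGR2 by 0.30, CD40 by 0.29 and IL2RG by 0.19. IL2RA (0.47), CD27 (0.42), IL4R (0.24) and IL12RB1 (0.15) rose. CD27, a TNF receptor of memory B cells, lay at 10.57, 10.68 and 10.78 in control and at 10.93, 11.08 and 11.35 in KD, without overlap.

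Of 31 genes of adhesion, homing and costimulation, 7 fell and 4 rose. Without the outlying array 8 fell and 4 rose, and 4 to 8 fell when 1 replicate was left out. SEMA7A, a membrane-anchored semaphorin, lay at 9.47, 9.56 and 9.66 in control and at 8.51, 8.75 and 8.85 in KD. No array of the arms overlapped, and the KD mean was 55.5% of control. ALCAM (-0.67), the chemokine receptors CXCR5 (-0.51), CCR4 (-0.44) and CXCR4 (-0.40), VCAM1 (-0.41) and CD80 (-0.22) fell with it. E-cadherin (CDH1, 0.41), ITGA4 (0.23), CD44 (0.22) and PECAM1 (0.19) rose, and the ITGA4 call was lost without any 1 of 10 arrays.

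Most tested genes of glycolysis and of the hypoxia response were called lower. Hypoxia-inducible factors (HIF) are made of an oxygen-sensitive α subunit and ARNT, and in low oxygen they raise glucose transporters, glycolytic enzymes and genes of mitophagy. Of 24 genes of glucose uptake and glycolysis, 17 fell and 0 rose, with a median of -0.24, and of 26 other hypoxia-induced genes 18 fell and 1 rose, with a median of -0.39. The median over all tested clusters was 0.02. The counts without the outlying array were 17 and 0, and 19 and 1. They ranged from 11 to 16 and from 11 to 19 falls when 1 replicate was left out, with 11 in both lists without replicate 1. Over both lists, 49, 49 and 43 of the 50 tested members had a negative difference in replicates 1, 2 and 3.

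PFKFB4, an enzyme that sets the level of the glycolytic activator fructose 2,6-bisphosphate, lay at 9.07, 9.40 and 10.06 in control and at 7.72, 8.38 and 9.02 in KD. The control arrays themselves were spread over 1 unit, with replicate 1 highest in both arms, and the difference within replicates was -1.11 ± 0.10 (adjusted p = 3.01e-05). PDK1, the kinase that shuts off pyruvate dehydrogenase, lay at 10.47, 10.79 and 11.06 in control and at 9.59, 10.04 and 10.28 in KD. The arms of both genes did not overlap. PFKFB3 (-0.67), the branching enzyme GBE1 (-0.60), the aldolase ALDOC (-0.54) and the hexokinase HK2 (-0.49) fell, and LDHA, PKM, PGK1, ENO2, TPI1 and GPI were called at smaller differences. GAPDH (-0.05), ENO1 (-0.05) and the transporters SLC2A1 (-0.12) and SLC2A3 (-0.34, adjusted p = 0.097) did not pass, though SLC2A1 was called without the outlying array (-0.16).

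HILPDA, a lipid droplet protein, had the largest fall of the second list, from 10.50, 11.39 and 12.26 in control to 9.69, 10.12 and 11.03 in KD. Its arms overlapped, with replicate 1 highest in both, and the difference within replicates was called (-1.14 ± 0.13, adjusted p = 0.000171). BNIP3, a receptor for mitophagy, lay at 11.94, 12.17 and 12.48 in control and at 11.10, 11.41 and 11.73 in KD, without overlap. DDIT4, an inhibitor of mTORC1 (-0.90), TMEM45A (-0.85), BNIP3L (-0.76), INSIG2 (-0.75) and the angiogenic factor VEGFA (-0.39) fell too. PLOD2, a lysyl hydroxylase, was the 1 member that rose (0.34), and ADM (-0.03), CA12 (-0.18) and NDRG1 (-0.02) did not pass, CA12 being called without the outlying array (-0.24). Without the replicate block, 10 and 12 members of the lists were called lower. The control SD of the members ranged from 0.0184 to 0.725.

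**Figure D3:**
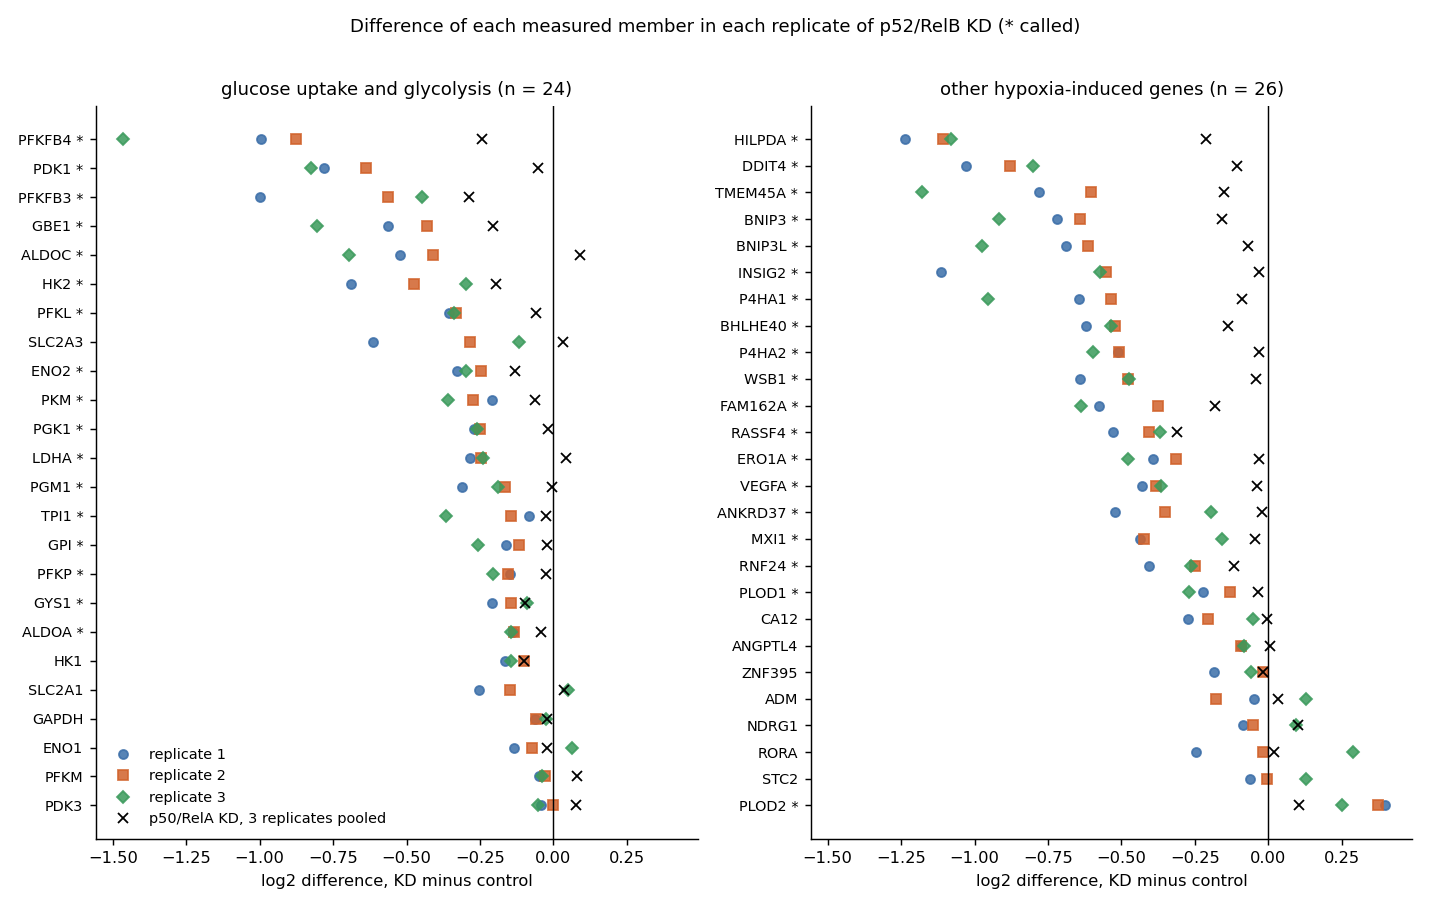
Log2 difference (x axis, KD minus control) of every tested member of the glycolysis list (left, 24 genes) and the list of other hypoxia-induced genes (right, 26 genes) in each replicate of p52/RelB KD, with crosses for the p50/RelA KD and asterisks for called members. In replicates 1 and 2 the points of 49 of the 50 genes lie left of 0, and PLOD2 is the called member on the right.

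Among oxygen sensors and HIF subunits, no subunit was called lower. Of 14 tested, 4 fell, the histone demethylases KDM3A (-0.62), KDM4B (-0.23) and KDM4C (-0.19) and the prolyl hydroxylase EGLN3 (-0.24), while the count was 0 without the replicate block or without replicate 1 and 1 without replicate 2. EPAS1, which encodes HIF-2α, lay at 10.10, 10.15 and 10.27 in control and at 10.44, 10.50 and 10.60 in KD. Its arms were apart, and it rose by 0.36 ± 0.03 (adjusted p = 3.55e-05). HIF1A had a difference of -0.11 ± 0.07 and did not pass (adjusted p = 0.402), and neither did ARNT (0.07) or EGLN1 (-0.17). The calls of EGLN3 and KDM4C were lost without any 1 of 5 and 10 arrays.

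The core of the hypoxia response element (ACGTG or GCGTG, on either strand) is short and was present in 43.1% of all promoters and in 54.4% of those of tested genes. It was present in 15 of 23 matched promoters of the glycolysis list (65.2%) and in 16 of 21 of the other hypoxia-induced genes (76.2%). The κB consensus was present in 4 and in 0 of these promoters. For members called lower, the core was present in 12 of 17 promoters of the glycolysis list (70.6%) and in 11 of 15 of the other list (73.3%). The promoters of PFKFB4, DDIT4 and BNIP3, which were among the largest falls, are shown with the core in capitals. Genes without a listed promoter or without a match were passed over, HILPDA (-1.14) and TMEM45A (-0.85) among them.
PFKFB4, chr3:48556804-48557053, minus strand: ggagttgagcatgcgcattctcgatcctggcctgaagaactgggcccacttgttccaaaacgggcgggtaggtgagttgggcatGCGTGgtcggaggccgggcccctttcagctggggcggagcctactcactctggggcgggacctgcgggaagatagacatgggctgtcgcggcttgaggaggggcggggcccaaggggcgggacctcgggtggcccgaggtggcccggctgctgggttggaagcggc
DDIT4, chr10:72273674-72273923, plus strand: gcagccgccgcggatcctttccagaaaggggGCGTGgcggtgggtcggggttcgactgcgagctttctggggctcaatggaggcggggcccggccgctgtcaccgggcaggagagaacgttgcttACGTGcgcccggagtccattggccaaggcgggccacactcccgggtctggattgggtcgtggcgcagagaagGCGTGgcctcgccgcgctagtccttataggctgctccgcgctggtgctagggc
BNIP3, chr10:131981924-131982173, minus strand: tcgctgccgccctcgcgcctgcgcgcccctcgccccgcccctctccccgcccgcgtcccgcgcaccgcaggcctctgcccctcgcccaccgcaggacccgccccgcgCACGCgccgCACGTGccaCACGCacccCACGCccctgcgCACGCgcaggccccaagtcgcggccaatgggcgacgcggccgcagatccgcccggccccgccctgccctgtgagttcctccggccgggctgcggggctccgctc
These windows hold 1, 3 and 6 matches of the core, and none of the 3 genes is in the NF-κB target list.

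Calls among genes of antigen presentation by MHC class II and of plasma cells were all falls. Of 14 MHC class II genes 6 fell, 8 did not pass and 0 rose, with a median of -0.16. They were HLA-DQA1 (-0.44), HLA-DPB1 (-0.29), HLA-DMA (-0.25), HLA-DRB5 (-0.24), IFI30 (-0.24) and HLA-DMB (-0.16), and probes for HLA genes may not separate related loci. HLA-DPB1, a β chain of HLA-DP, lay at 10.66, 10.71 and 10.93 in control and at 10.28, 10.50 and 10.59 in KD. The arms came close but did not overlap, and all 3 clusters of the gene were called lower, though these may share probes. The number of falls was 3 without replicate 1 or 2, 7 without the outlying array and 9 without the KD array of sequence 1 in replicate 3, and HLA-DMB was lost without any 1 of 5 arrays. The list mean was at most 8.72 on every KD array and at least 8.77 on every control array. Of 14 MHC class I genes, TAP1 fell (-0.15) and ERAP2 rose (0.21), calls that were lost without any 1 of 3 and 9 arrays.

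Of 11 plasma cell genes 7 did not pass and 4 fell, which were TNFRSF17, PRDM1 (-0.40), the signal peptidase subunit SEC11C (-0.36) and CAV1 (-0.34). PRDM1, the gene of BLIMP1, which directs plasma cell differentiation, lay at 7.41, 7.71 and 7.90 in control and at 7.13, 7.24 and 7.46 in KD. The arms overlapped at their edges, and the highest array of each arm was sequence 1 of replicate 2. IRF4 had an adjusted p of 0.037 but a difference of -0.12, under 10%, and XBP1 (-0.11) did not pass. No member rose. The count was 1 without replicate 1 and 2 without replicate 2.

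Of 27 factors of the B lineage and the germinal centre, 7 rose, 3 fell and 17 did not pass, with a median of 0.04. RUNX1 (0.33), ETS1 (0.27), FOXP1 (0.24), ID3 (0.22), BCL6 (0.20), PAX5 (0.19) and LEF1 (0.19) rose. GCSAM, a signalling adaptor of germinal centre B cells, fell from 10.61, 10.82 and 11.05 to 9.93, 10.21 and 10.38, without overlap, and RGS13 (-0.41) and TCF3 (-0.23) fell with it. The rises came to 2 without replicate 1 and 3 without replicate 2, and the calls of BCL6 and RGS13 were lost without any 1 of 8 and 6 arrays. FCER2 (CD23), the low-affinity IgE receptor of B cells, lay at 12.36, 12.67 and 12.77 in control and at 12.96, 13.10 and 13.20 in KD. Its arms were separate, and it rose by 0.48 ± 0.04 (adjusted p = 9.75e-06). The other called genes of the B cell surface list fell, namely SWAP70 (-0.33), FCGR2B (-0.33) and CD22 (-0.30, lost without any 1 of 3 arrays).

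Inhibitors of apoptosis held more falls than rises. Of 12 tested 5 did not pass and 5 fell, BIRC2, CFLAR, IER3 (-0.44), BCL2L1 (-0.42) and BCL2 (-0.16), and BCL2A1 (0.30) and BIRC5 (0.16) rose, with a median of -0.16. Without the outlying array 5 fell and 2 rose, and 3 to 5 fell when 1 replicate was left out. CFLAR, which encodes the caspase 8 inhibitor c-FLIP, lay at 10.62, 10.77 and 10.93 in control and at 10.12, 10.32 and 10.54 in KD. The arms did not overlap, and 1 of its 2 tested clusters was called. The fall was -0.34 with sequence 1 and -0.61 with sequence 2, and -0.41 without the outlying array. MCL1 (-0.19, adjusted p = 0.18) and XIAP (0.01) did not pass. Of 27 death receptors, BH3 proteins and caspases, BAK1 rose (0.24) and TNFRSF10B (-0.20) and BCL2L11 (-0.19) fell, the last lost without any 1 of 9 arrays.

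Many replication-dependent histones were higher. Of 49 tested, 22 rose, 27 did not pass and 0 fell, with a median of 0.12, but their probes can share sequence, so that single members are uncertain. H3C3, a histone H3 gene, lay at 8.41, 8.61 and 8.78 in control and at 9.05, 9.29 and 9.48 in KD, and the arms were apart. H2AC12 (0.49), H2AC17 (0.47), H2AC14 (0.43), H3C1 (0.41) and H2BC17 (0.40) came next. The count was 28 without the outlying array, 10 without replicate 1, 9 without replicate 2 and 10 without the replicate block. The median was 0.16, 0.21 and 0.02 in replicates 1, 2 and 3.

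Other cell cycle genes gave counts that turned on the outlying array. Rises were called for 5 of 44 S phase genes, 5 of 27 G1 genes and 4 of 52 G2/M genes, and for 11, 11 and 13 without that array. The median of the S phase genes was 0.11, 0.13 and -0.04 in replicates 1, 2 and 3, and that of the G2/M genes 0.10, 0.11 and -0.12. Among G1 genes the cyclin CCND3 (0.24), the CDK inhibitor CDKN2B (0.26) and E2F1 (0.18) rose, whereas the CDK inhibitors CDKN1A (-0.27) and CDKN1B (-0.19, lost without any 1 of 7 arrays) fell.

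The counts of interferon-stimulated genes also turned on the choice of arrays. Of 44 tested, 3 fell (EPSTI1 by 0.60, IFIH1 by 0.52 and IFITM1 by 0.34) and 5 rose, with a median of 0.03. Without the outlying array 6 fell and 15 rose, and over the runs without 1 array the rises ranged from 1 to 15. The list mean lay between 8.62 and 8.78 on control arrays and between 8.43 and 9.005 on KD arrays, with the lowest value on the outlying array and the highest on sequence 1 of replicate 1. GBP5, a guanylate-binding protein, lay at 8.50, 8.55 and 8.75 in control and at 8.62, 8.98 and 9.16 in KD, with overlapping arms. Its rise was 0.35 ± 0.08 (adjusted p = 0.0203), 0.43 without the outlying array, and it was lost without any 1 of 5 other arrays. IFIT3, DTX3L, PARP9 and OAS3 rose by 0.26 to 0.38 with all arrays, but IFIT3, PARP9 and OAS3 lost the call without any 1 of 10, 11 and 9 arrays.

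**Figure D4:**
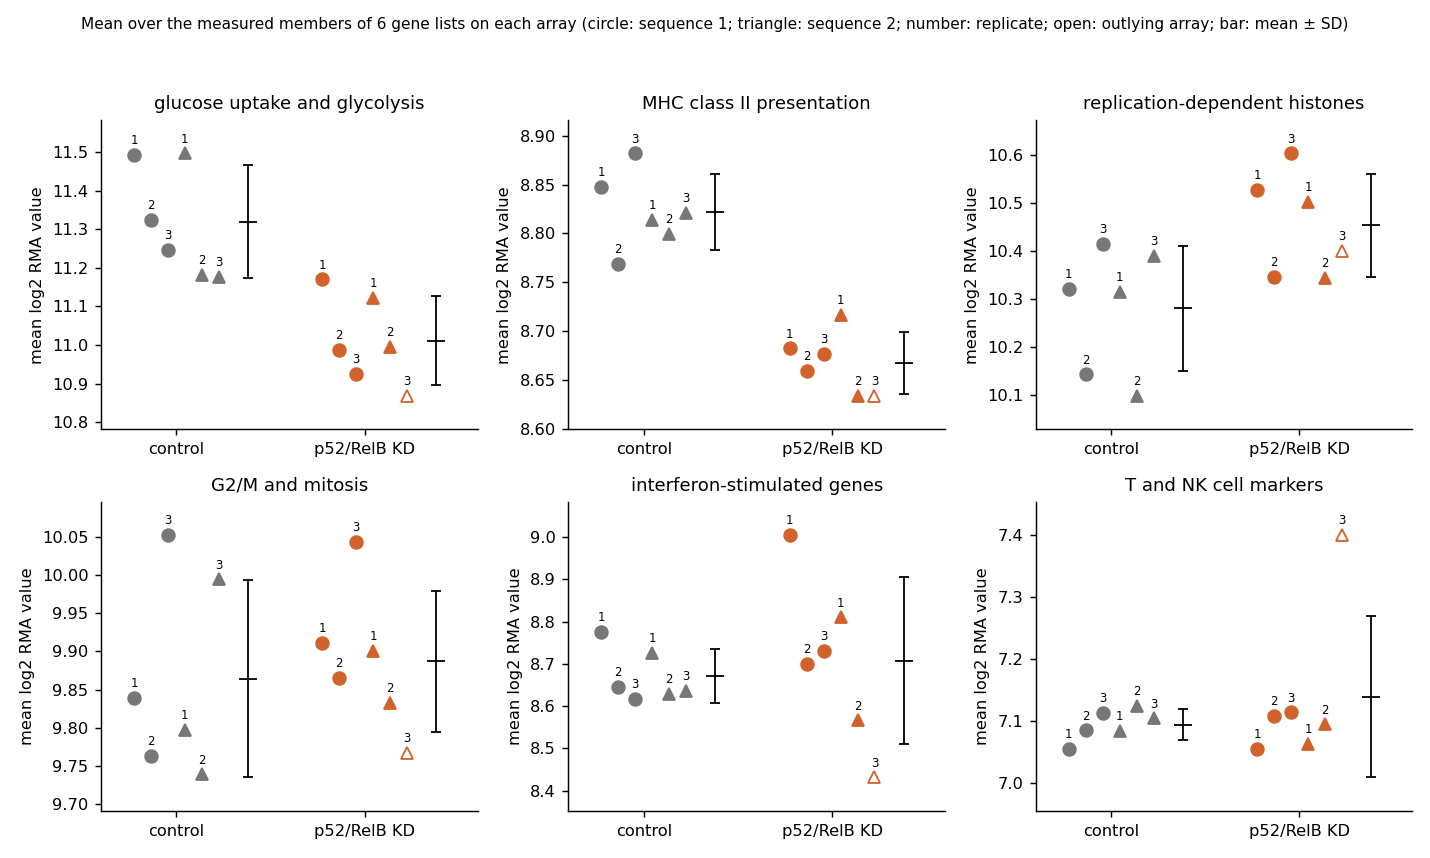
Mean log2 RMA value over the tested members of 6 gene lists on each array (y axis, each panel with its own scale), drawn with the same symbols as the subunit genes: circles and triangles for sequences 1 and 2, numbers for replicates, an open triangle for the outlying array, bars for mean ± SD. Glycolysis means are only just separate between the arms (at most 11.17 in KD, at least 11.18 in control), and MHC class II means are separate. The histone means are higher in KD than in the control array of the same sequence and replicate, but nearly equal on the outlying array (10.40 against 10.39). The T and NK cell markers are high (7.40) on the outlying array alone.

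Further lists held few calls, and most of these counts were smaller in at least 1 run without an array or a replicate. STAT5A (-0.46) and the kinase PIM2 (-0.28) fell and TYK2 (0.25) and JAK1 (0.19) rose among 26 JAK-STAT genes, where 4 were called each way (2 each at the lowest without 1 array). Of 24 immediate early genes 5 were called each way (3 falls at the lowest without 1 array, 1 each at the lowest without 1 replicate), with DUSP5 (0.35), SPRED1 (0.29), EGR1 (0.27) and NR4A3 (0.26) among the rises. FOS rose (0.30) and ATF5 (-0.27) and BATF2 (-0.23) fell among 18 AP-1 and ATF factors, where 3 falls and 2 rises became 0 and 0 at the lowest without 1 replicate. Of 33 Notch pathway genes 4 fell (2 to 6 without 1 array), led by the target HEY1 (-0.69) and the DNA-binding factor RBPJ (-0.28, 1 of its 2 tested clusters called). The ligand JAG1 rose (0.34). Of 35 genes of unfolded protein and amino acid stress 5 fell (3 to 5 without 1 array) and 0 rose, led by DDIT3 (-0.34), HERPUD1 (-0.32) and SLC7A5 (-0.30). ATF4, a member that did not pass, has 2 tested clusters, and the 1 not used for the list was called higher. Of 25 genes of cholesterol and fatty acid synthesis 4 fell, led by INSIG1 (-0.37) and SCD (-0.22), but 2 to 3 did without 1 array and 1 without any 1 replicate. Of 26 p53 targets DDB2 rose (0.38) and 4 fell (2 to 5 without 1 array, 0 to 4 without 1 replicate), and of 8 interferon regulatory factors IRF5 fell (-0.23) and IRF2 rose (0.18, lost without any 1 of 8 arrays). Of 13 factors foreign to the B lineage GATA3 fell (-0.22), and of 25 Polycomb and chromatin regulators PHF19 and PCGF2 (-0.17) fell.

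Several lists served as a background. No member was called among 23 ribosomal proteins, 33 respiratory chain and ATP synthase subunits, 14 heat shock genes, 14 T and NK cell markers and 7 myeloid markers. Of 11 reference genes for RT-qPCR, PGK1, also a member of the glycolysis list, fell, and of 14 fibroblast, endothelial and epithelial markers PECAM1 rose. DICER1 (-0.17) fell and DGCR8 (0.14, lost without any 1 of 7 arrays) rose among 13 genes of the RNAi machinery. Without the outlying array 1 heat shock gene fell, and 1 respiratory chain gene, 1 myeloid marker and 2 of the last marker list rose.

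Most of the largest changes lay outside the lists. Of the 62 falls over 1.5-fold 41 were in no list, and of the 16 rises 15 were in none. The share of all tested genes that the lists hold is not given here, so these counts do not show whether large changes were rarer or more frequent in the lists. ARG2, the mitochondrial arginase, lay at 9.59, 10.15 and 10.35 in control and at 7.72, 8.77 and 9.30 in KD, and its fall was larger in replicate 3 (-1.98) than in replicates 1 and 2 (-1.02 and -1.13). TMPRSS3, a membrane serine protease, lay at 10.59, 10.76 and 10.81 in control and at 9.19, 9.52 and 9.69 in KD. PHF19, a Polycomb-like protein that binds methylated histone H3, lay at 10.60, 10.80 and 10.92 in control and at 9.71, 9.82 and 9.94 in KD. The arms of these 3 genes did not overlap, and KD left 38.5%, 43.0% and 51.3% of control. KCNN1, a calcium-activated potassium channel, had a narrow spread in both arms, from 9.96, 10.03 and 10.19 to 9.19, 9.30 and 9.37 (-0.77 ± 0.03, adjusted p = 2.46e-07). RNASE1 (-0.80), a secreted ribonuclease, TNFAIP6 (-0.79), ACADSB (-0.79), an acyl-CoA dehydrogenase, SERPINB8 (-0.79) and the oxidase ERO1B (-0.77) fell to a similar extent.

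ASPN, a proteoglycan of the extracellular matrix, lay at 5.38, 6.26 and 6.62 in control, around the limit of 6, and at 6.83, 7.72 and 8.09 in KD. It was called higher, but with a control near the limit the size of its rise is uncertain. PRICKLE1, of the planar cell polarity pathway, rose from 9.10, 9.19 and 9.29 to 10.08, 10.28 and 10.44. KCNJ15, a potassium channel, rose from 7.25, 7.29 and 7.50 to 8.17, 8.42 and 8.64. All 3 were separate between the arms, and PRICKLE1 and KCNJ15 were both at 2.09-fold of control. INHBA (0.60), a subunit of activins, and ACVR1C (0.59), a receptor of the activin family, both rose.

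MIR9-1, the locus of a miR-9 precursor, lay at 6.52, 6.58 and 6.97 in control and at 7.39, 7.56 and 7.82 in KD. The arms were separate, and the rise was 0.94 ± 0.07 (adjusted p = 6.69e-06). The cluster reads transcripts of the locus, and the mature miRNAs were not measured. They are shown with the seed (bases 2 to 8) in capitals, from RefSeq (GRCh38.p14).
hsa-miR-9-5p, chr1:156420392-156420414, minus strand: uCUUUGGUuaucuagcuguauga
hsa-miR-9-3p, chr1:156420354-156420375, minus strand: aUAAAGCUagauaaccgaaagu
The mature arms are 23 and 22 bases long and have different seeds.

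The effect of p52/RelB KD was set against that of p50/RelA KD in 1 fit over the 24 arrays, in which each KD kept its own controls. The experiments also differed in siRNA schedule and scan batch, which cannot be told apart from the subunits targeted. Of 14647 clusters tested in both experiments, 637 had unequal effects (4.35%), 359 lower (2.45%) and 278 higher (1.9%) in p52/RelB KD. Of 1535 called p52/RelB clusters in this set, 532 differed, and in 327 of these p52/RelB KD gave the larger fall and in 204 the larger rise. In p50/RelA KD itself 157 of 14672 clusters were called (1.07%), 121 lower (0.825%) and 36 higher (0.245%), of which 96 were called here in the same direction and 8 in the opposite one. The number of clusters with unequal KD effect in p52/RelB KD and p50/RelA KD was 942 without the outlying array, and without replicate 1, 2 or 3 of this experiment 316 to 554.

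Among NF-κB targets, unequal effects were mostly on the higher side in p52/RelB KD. Of the 54 textbook targets tested in both, 15 had a higher and 1 a lower value here, and the 15 all had a negative difference in p50/RelA KD, where 19 targets were called lower. CCL5 was -0.31 ± 0.04 in p50/RelA KD and 0.37 ± 0.04 here, a difference of 0.68 (limma adjusted p = 2.89e-07). CCL3 (0.90), CCL17 (0.56), CSF1 (0.54), TNFRSF9 (0.45), NFKBIA (0.44) and BCL2A1 (0.42) differed in the same sense. For CCL22 the effects were -0.75 and -0.86, and the difference of -0.11 ± 0.10 did not pass (adjusted p = 0.664). LTA was the 1 target with the larger fall here (-0.25, adjusted p = 0.0129), with REL (-0.47, adjusted p = 0.00135) and BIRC2 (-0.37, adjusted p = 0.038) in the same sense outside that list. MAP3K14 was 0.09 in p50/RelA KD and differed by 0.36 (adjusted p = 0.00478).

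The hypoxia-related lists had the reverse pattern. Of 49 members tested in both, 19 were unequal, 7 of the glycolysis list and 11 of the other list lower here and PLOD2 higher. The median of these 49 members in p50/RelA KD was -0.03, and RASSF4 was the 1 member called there. PDK1 differed by -0.70 ± 0.15 (adjusted p = 0.00953) and HILPDA by -0.93 ± 0.19 (adjusted p = 0.00606). TMEM45A (adjusted p = 0.129) and PFKFB3 (adjusted p = 0.18) did not pass. Of the 14 MHC class II genes 0 were called in p50/RelA KD, and HLA-DQA1 (-0.36) and HLA-DPB1 (-0.33) were unequal. PRDM1 (-0.46), GCSAM (-0.66) and, in the other direction, FCER2 (0.58), PAX5 (0.23) and RUNX1 (0.35) were unequal as well. Of 44 interferon-stimulated genes 9 were called lower in p50/RelA KD, and 11 had a higher effect here, the largest being OAS3 (0.79), IFIT1 (0.75) and IFIT3 (0.73).

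The 8 clusters called in opposite directions were SCPEP1, lower here (-0.28) and higher in p50/RelA KD (0.20), and 7 that were higher here and lower there. These were the target NFKB1, the apolipoprotein APOD (0.23 and -0.38), OAS3 (0.26 and -0.53), EGR1 (0.27 and -0.24), TESC (0.32 and -0.23), PRR5L (0.36 and -0.38) and CCL5. NFKB1 was itself a target of the p50/RelA siRNAs, and its difference of 2.06 (adjusted p = 9.83e-09) is that of a targeted and an untargeted gene. Of the 62 falls over 1.5-fold 54 were unequal to the p50/RelA effect and 17 were called there too, and of the 16 rises 15 and 5.

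**Figure D5:**
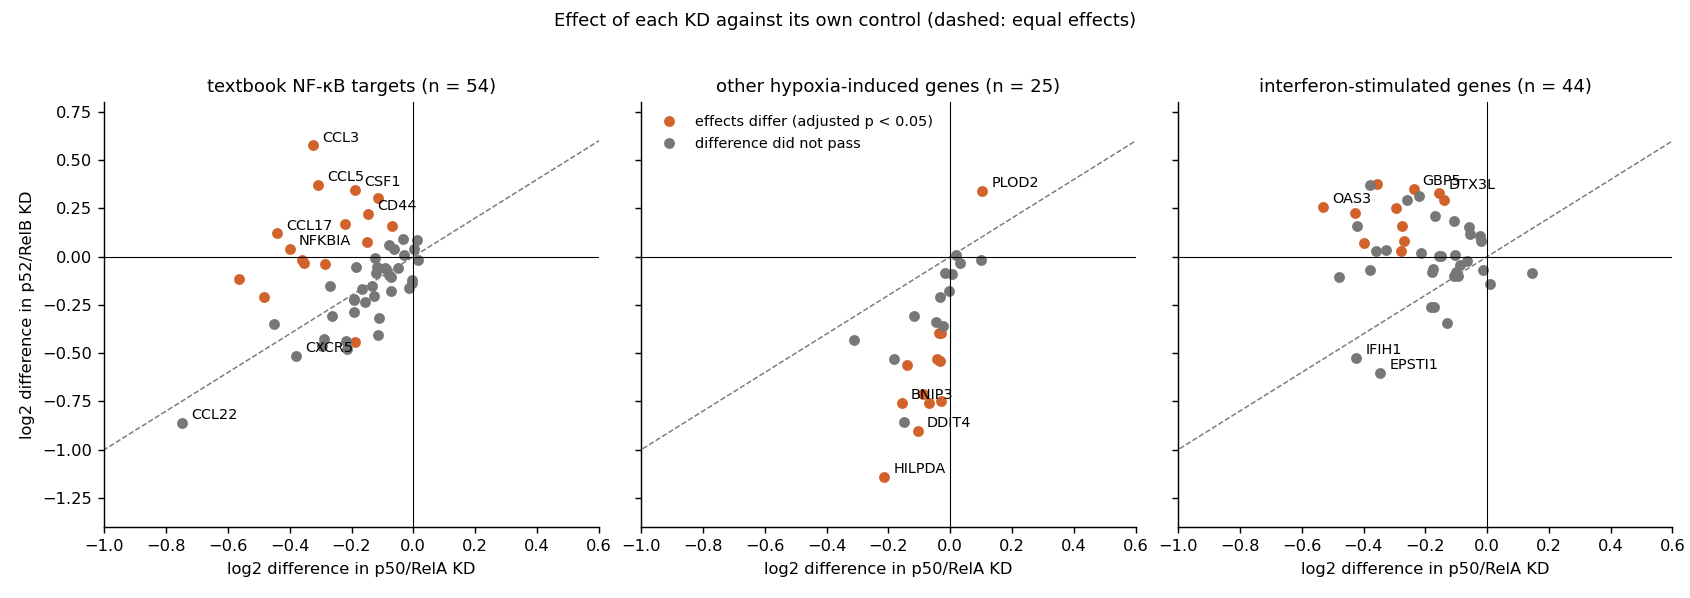
Log2 difference of each gene in p50/RelA KD (x axis) and in p52/RelB KD (y axis), each against its own control, for 54 textbook NF-κB targets, 25 other hypoxia-induced genes and 44 interferon-stimulated genes, with a dashed line of equal effects and orange points where the effects differed at adjusted p below 0.05. CCL22 (-0.75 and -0.86) lies near the line, CCL5 and CCL3 lie above it on the other side of 0, and the hypoxia-induced genes spread downward at x values near 0.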

How the data were processed

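Total RNA of L1236 cells was measured on Affymetrix Human Gene 1.0 ST arrays. Per the labels and methods, the authors normalized the arrays by RMA (background correction, quantile normalization and summarization), and the deposited values are log2 expression values per transcript cluster. RMA compresses differences of low values, and precision is bounded by how many arrays there were. Groups came from the sample titles. From the deposited values, limma 3.58.1 in R 4.3.3 was fitted to the 12 arrays with the replicate as a block, over clusters with 1 gene symbol that reached 6 in over 50% of arrays, with Benjamini-Hochberg adjustment. A call needed an adjusted p below 0.05 and a difference of at least 10%. The KD effects were compared in 1 fit over 24 arrays. The replicate numbers were taken to pair the arms, since the deviations of same-numbered arrays correlated at 0.574, 0.268 and 0.377. The code was tested on simulated data.

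The members, gene lists and tests were chosen with earlier results of these data known. Named genes were the NF-κB subunits, the largest changes of the same sign in all replicates and both sequences, up to 6 called members each way and 3 that did not pass per list, and the genes with the largest differences between the KDs. Other genes, namely APOD, ATF4, CD80, CXCL13, EBI3, ENO2, GPI, IFIT1, IL12A, IRF1, LDHA, LEF1, NDRG1, PKM, PRR5L, RASSF4, SCPEP1, SLC2A1, TESC, TGFB1, TNFSF9 and TPI1, were chosen after their values were seen. For a gene with several clusters in a list, the one with the highest mean was used, so a call of another cluster of that gene is not in the list counts. Alternatives were leaving out each array or replicate, no block, single sequences, averaged sequences, scan batches, array weights, other scaling, stricter folds and the methods' t-test. Promoters and miRNAs are from RefSeq tables (GRCh38.p14), and the siRNAs could not be placed on a genome here.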

Additional observations from a re-analysis of the deposited data

Results flagged for a closer look

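Within each arm of 6 arrays, 148 sets of values were examined for an array far from the rest, by its gap to the nearest array over the range of the arm and Dixon's critical value. Chance passes about 1 in 20 such sets, and 12 passed, 11 of them through the KD array of sequence 2 in replicate 3. The sets reuse the same 6 arrays per arm and are not independent, and that array was known to be outlying beforehand. The count is therefore a description and not a test. On that array the ratio was 0.706 for the median (7.51), 0.631 for the interquartile range (3.16) and 0.854 for the mean correlation with its arm (0.986). Among genes it was 0.805 for BIRC2 (9.25) and 0.659 for ASPN (6.83). Among list means on the same array it was 0.718 for inhibitors of apoptosis, 0.638 for heat shock genes and 0.698 for Polycomb and chromatin regulators. For markers of other cells it was 0.829 for T and NK cells, 0.781 for myeloid cells and 0.637 for fibroblast, endothelial and epithelial cells. The remaining one was KCNJ15 on the control array of sequence 2 in replicate 1 (0.745, at 7.50). The part of this array in single results beyond the values given without it was not tested.

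The effects of the KDs differed in 637 clusters by a test of the difference. NFKB1 differed by 2.06 (limma adjusted p = 9.83e-09), being targeted in p50/RelA KD, and CCL5 by 0.68 (limma adjusted p = 2.89e-07).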

How the results depend on the processing

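Of 1559 called clusters in p52/RelB KD, 984 were called in every run without 1 array and 333 in every run without 1 replicate. With no replicate block the count was 880, and leaving out 1 array or replicate gave 443 to 2309. It was 5 with sequence 2 alone, 631 with sequences averaged and 725 by the methods' t-test. It was 0 in the scan batch of replicate 3 alone (limma; 1057 at an unadjusted p below 0.05), 637 at 1.2-fold and 78 at 1.5-fold. With replicates 1 and 2 of sequence 1 or 2 alone, chosen after seeing the data, it was 989 and 603. The number of clusters with unequal KD effect in p52/RelB KD and p50/RelA KD was 250 with no replicate block and 316 to 942 when a replicate or the outlying array was left out. NFKB2 in p52/RelB KD was -1.36 in the scan batch of replicate 3 alone (limma adjusted p = 0.259). RELB in p52/RelB KD ranged from -0.31 to -0.26 without 1 array or replicate. Its adjusted p in limma missed the threshold in 3 settings: the difference was -0.27 without replicate 2 (0.0772), -0.27 with sequence 2 alone (0.385) and -0.23 in the scan batch of replicate 3 alone (0.667). Single sequences, scan batches and left-out replicates use fewer arrays. Of the genes named by the rule, none of the 210 called ones changed sign in any setting, while 51 of the 104 that did not pass did so in at least 1, and 23 of these in the scan batch of replicate 3 alone. Every setting reuses the arrays from which genes were called and named, so this contrast follows largely from the selection. The cause of the other differences between settings was not tested.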
